A study of Homo sapiens with 27 samples.

Results

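The 35 genes described here encode aminoacyl-tRNA synthetases. Of these, 19 encode cytosolic enzymes and 16, with symbols ending in 2, encode mitochondrial ones. The genes were chosen by symbol from the 60534 gene IDs shared by every library. No measured value entered the rule, but earlier results of these data were known when the choice was made. GARS1 and KARS1 each give both the cytosolic and the mitochondrial enzyme and were kept with the cytosolic genes. FARSA and FARSB encode the 2 subunits of 1 enzyme, and EPRS1 encodes an enzyme that charges both glutamyl and prolyl tRNAs.

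mRNA and ribosome footprints were counted in IMR90 cells (normal fibroblasts of human fetal lung), in 13 RNA-seq and 14 Ribo-seq libraries. Ribo-seq sequences the stretches of mRNA that ribosomes shield from RNase. Cycling cells, at 40 to 60% confluency, gave 2 RNA-seq and 3 Ribo-seq libraries. Quiescent cells, arrested by contact inhibition, gave 3 of each kind. Irradiated senescent cells received 15 Gy and were collected 10 days later, and gave 3 of each. Etoposide-treated senescent cells received the topoisomerase II poison etoposide at 50 µM in 3 treatments over 10 days, and gave 3 of each. Thapsigargin-treated cells were cycling cells given 25 nM of this inhibitor of the calcium pump of the endoplasmic reticulum for 3 h, and gave 2 of each. All states come from a single cell line. The labels do not say whether replicates were separate cultures, so each p-value measures only the spread between these libraries.

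Each synthetase joins an amino acid to its tRNAs, so the cytosolic set feeds ribosomes in the cytoplasm and the mitochondrial set feeds the translation of the proteins encoded by mitochondrial DNA. Both sets are encoded in the nucleus. When the kinases of the integrated stress response act, initiation slows for most mRNAs, the transcription factor ATF4 is translated more, and ATF4 raises genes for amino acid uptake, amino acid synthesis and many cytosolic synthetases. Among the cytosolic genes, 13 are known from other work as ATF4 targets (AARS1, CARS1, EPRS1, GARS1, IARS1, LARS1, MARS1, NARS1, SARS1, TARS1, VARS1, WARS1 and YARS1). The other 6 are FARSA, FARSB, HARS1, KARS1, QARS1 and RARS1.

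ATF4 binds as a dimer with C/EBP proteins to a composite element, searched here as TGATGNAA and, on the other strand, TTNCATCA. The window ran from 250 bases before to 50 bases after each transcription start in RefSeq's promoter table (GRCh38.p14), which held 30 of the 35 genes. The element was present for 7 of the 16 cytosolic genes with a window, and all of them are among the known ATF4 targets (7 of 10, with 0 of 6 for the other cytosolic genes). It was present for 1 of 14 mitochondrial genes, YARS2. Across the table, 3.62% of 35116 promoters held it, and 2.71% of the 21574 promoters of protein-coding genes. A gene with several windows counts where any of them held the element. The 5 stretches of 70 bases below belong to genes whose footprints rose under thapsigargin or differed between the senescent states. They are written 5′ to 3′ on the strand of the gene, with the element in capitals.
AARS1 (chr16:70289676-70289745, minus strand): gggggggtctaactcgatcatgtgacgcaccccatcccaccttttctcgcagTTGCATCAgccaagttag
CARS1 (chr11:3057408-3057477, minus strand): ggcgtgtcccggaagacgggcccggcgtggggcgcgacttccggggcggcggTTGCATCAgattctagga
IARS1 (chr9:92293693-92293762, minus strand): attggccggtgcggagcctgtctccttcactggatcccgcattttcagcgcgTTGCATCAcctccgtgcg
MARS1 (chr12:57488012-57488081, plus strand): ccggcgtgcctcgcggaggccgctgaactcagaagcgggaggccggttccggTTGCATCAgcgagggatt
NARS1 (chr18:57621809-57621878, minus strand): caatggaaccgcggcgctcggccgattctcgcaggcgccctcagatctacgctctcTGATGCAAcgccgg
The first base of the element lay 187 bases before the start of AARS1, 13 before that of IARS1, 4 before that of MARS1 and 2 before that of CARS1, at the upstream of its 2 starts in the table, so that in MARS1 and CARS1 it runs over the start. In NARS1 it began at base 15 of the transcript. GARS1 also has 2 starts in the table, and only the window of the downstream one held the element, 33 bases before that start and inside the gene as counted from the upstream one. The windows of SARS1, EPRS1 and WARS1 held no match. A match describes these letters only and is no evidence of binding.

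Gene counts summed to 20635503 to 57119841 per RNA-seq library and to 1936976 to 19996104 per Ribo-seq library. They were lowest in the thapsigargin Ribo-seq libraries, at 1936976 and 2044900, which makes those footprint values the least precise. All 10 fibroblast markers were over 1 CPM (counts scaled to the library total, with TMM factors) in cycling cells in both assays, and immune markers summed to at most 1.21 CPM in any library. The thapsigargin libraries stand apart from the rest: 1.35 and 1.40% of their RNA-seq reads were unmapped against 27.8 to 40.6% elsewhere, and 65.2 to 66.9% of their Ribo-seq reads mapped to several places against 19.8 to 31.9%. Their Ribo-seq files also use another list of gene IDs than the other Ribo-seq files, and their medium is described without antibiotics. Treatment and these differences cannot be told apart in any thapsigargin comparison. In the same libraries the summed fibroblast markers were 14176 to 14776 CPM in Ribo-seq against 42802 to 46646 CPM in cycling cells. The 5 epithelial markers, of which KRT7 and KRT19 were over 1 CPM, summed to 94.5 to 103 CPM in RNA-seq against 19.3 to 25.6 CPM. In irradiated cells the fibroblast markers summed to 26273 to 29599 CPM in Ribo-seq, with 2 of the 10 higher and 6 lower than in cycling cells, and in quiescent cells to 22606 to 54760 CPM. The part of these shifts in the results was not tested. Since the libraries are bulk, fewer cells of a type and less RNA per cell cannot be told apart.

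VARS2, the mitochondrial valyl enzyme, was listed at 0.183 CPM or less in each library and was not tested. The other 34 genes were tested in each assay. SARS2, the mitochondrial seryl enzyme, lay between 0 and 4.15 CPM, and its estimates are imprecise. HARS1 and HARS2 start 85 bases apart on opposite strands of chromosome 5, and reads that overlap several genes were not counted. Changes were called where the adjusted p was under 0.05 in edgeR's quasi-likelihood test with Benjamini-Hochberg adjustment over all genes tested, and all adjusted p-values below are of this kind unless another setting is named. Log2 fold changes are given ± SE, and levels library by library. The SE was derived from the test, as the absolute log2 fold change divided by the square root of the F statistic.

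**Figure D1:**
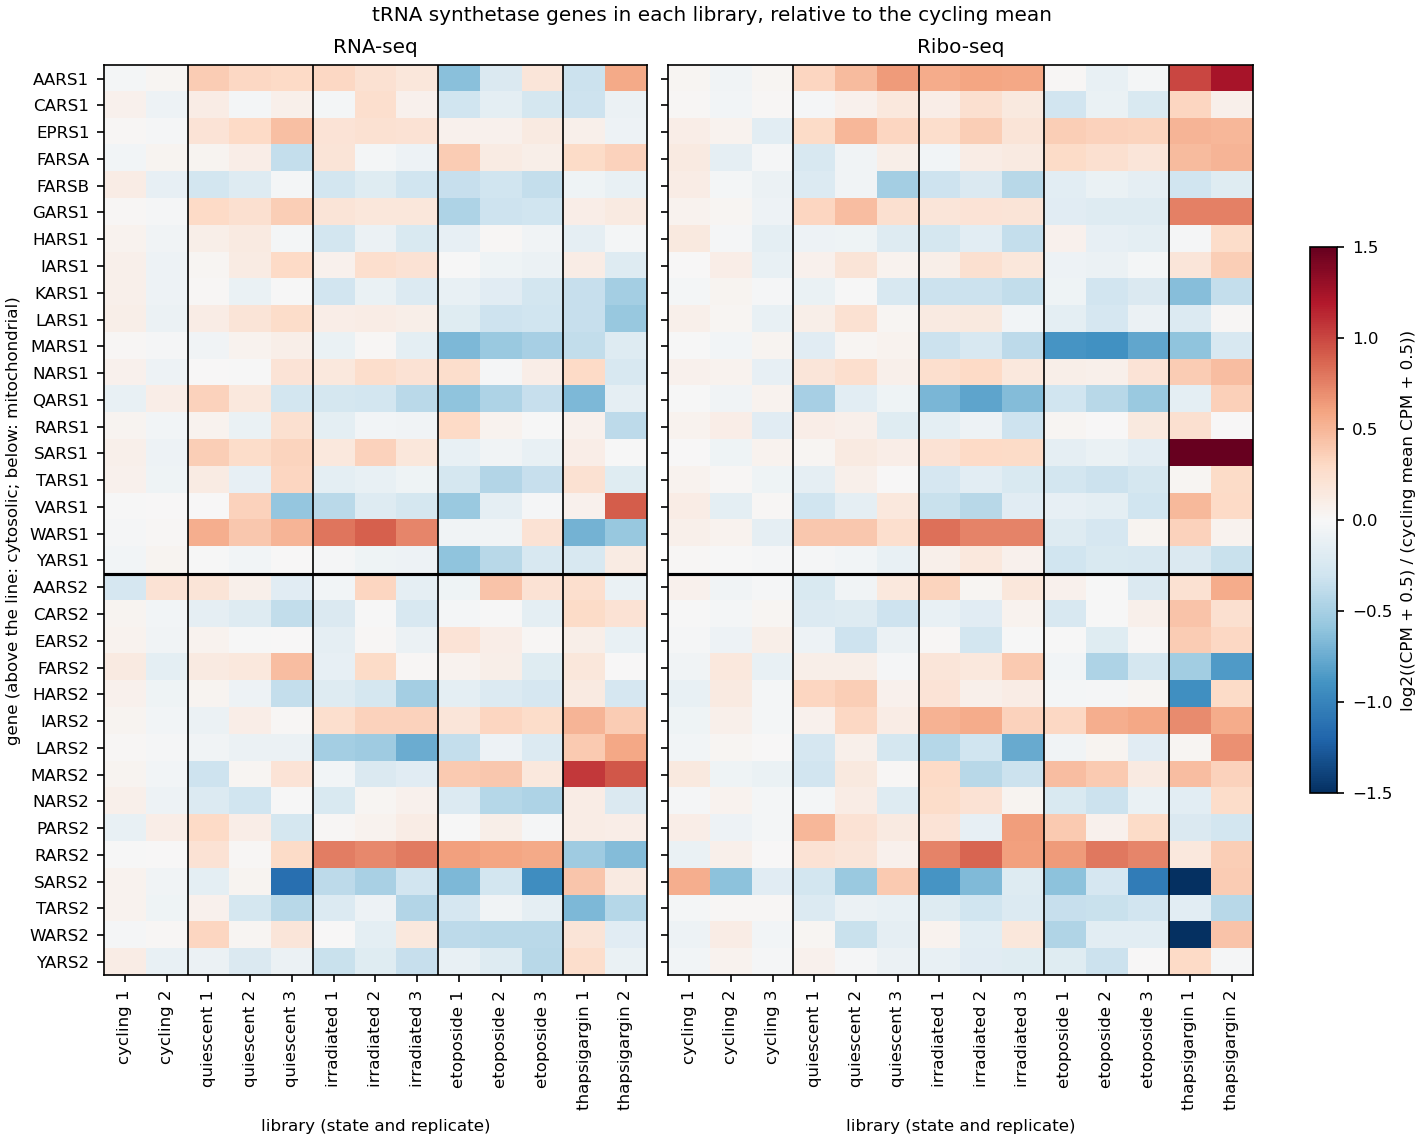
Each cell is the log2 ratio of a gene's CPM in 1 library to the cycling mean (0.5 CPM added to both), with the 19 cytosolic genes above the line, the 15 tested mitochondrial genes below it, and libraries in columns by state. The darkest cells of the cytosolic block are SARS1 and AARS1 in the thapsigargin Ribo-seq libraries, while the RARS2 row is higher in all irradiated and etoposide-treated libraries of both assays.

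Thapsigargin against untreated cycling cells asks how acute stress of the endoplasmic reticulum moves the synthetases. Among genes of the stress response in these libraries, DDIT3, a transcription factor, rose by 3.44 ± 0.16 on the log2 scale in RNA-seq. Footprints on 8 of the 19 cytosolic genes rose and those on 3 fell, where 44.4% of all genes tested were called, 20% higher and 24.4% lower. The median cytosolic log2 fold change was 0.20 beside -0.11 for all genes tested. Counts are scaled within each library, so a rise or fall here is relative to the other genes. Total footprints per cell were not measured. Among the mitochondrial genes, footprints on 2 of 15 rose and those on 1 fell, with a median of 0.15. All but 1 of the 8 cytosolic genes that rose are known ATF4 targets, and the exception is FARSA. Of the 19 cytosolic genes, 13 are known targets.

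SARS1, which charges serine tRNAs, had the largest footprint change of the 34 tested synthetase genes. Its footprints were at 628, 596 and 645 CPM in the cycling libraries and at 2149 and 2086 CPM in the thapsigargin libraries. Both thapsigargin libraries were far above every library of the other states, of which the highest had 767 CPM. The means were 623 ± 25.2 CPM (SD, n = 3) and 2118 ± 44.7 CPM (SD, n = 2). The log2 fold change was 1.77 ± 0.08 (adjusted p = 3.17e-09 by edgeR). SARS1 mRNA was at 360.5 and 323 CPM in cycling and at 366 and 341 CPM in thapsigargin-treated cells, which overlap (log2 fold change 0.05 ± 0.11, adjusted p = 0.795).

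AARS1, the alanyl enzyme, had footprints of 486, 459 and 487 CPM in cycling cells and 954 and 1123 CPM under thapsigargin. The 2 groups were well apart, with a log2 fold change of 1.12 ± 0.10 (adjusted p = 2.45e-06). Its mRNA differed widely between the 2 thapsigargin libraries, at 136 and 251 CPM, against 166 and 173 CPM in cycling cells. The cycling values lie between them, and the log2 fold change of the mRNA was 0.19 ± 0.25 (adjusted p = 0.621). Without thapsigargin replicate 2 it was -0.30 (adjusted p = 0.396). GARS1, the glycyl enzyme of both compartments, had footprints of 983, 963 and 895 CPM in cycling cells and 1604.5 and 1603 CPM under thapsigargin. That is a log2 fold change of 0.76 ± 0.08 (adjusted p = 1.11e-05) with no overlap, beside 0.12 ± 0.11 for its mRNA (adjusted p = 0.437).

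Smaller rises in footprints were measured for EPRS1 (0.51 ± 0.10), FARSA (0.49 ± 0.12), NARS1 (0.42 ± 0.09), VARS1 (0.39 ± 0.14) and IARS1 (0.28 ± 0.09), all on the log2 scale. NARS1 charges asparagine tRNAs. VARS1 and IARS1 charge valine and isoleucine tRNAs. The call of IARS1 ended without thapsigargin replicate 2 (adjusted p = 0.135), and that of VARS1 ended without cycling replicate 2 or thapsigargin replicate 1 (adjusted p up to 0.205). Both also ended with no filter on low counts, where 6 cytosolic genes rose.

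KARS1, the lysyl enzyme of both compartments, moved the other way. Its footprints were at 265, 278 and 267 CPM in cycling cells and at 174 and 209.8 CPM under thapsigargin, a log2 fold change of -0.49 ± 0.11 (adjusted p = 0.00273). Its mRNA was at 274 and 246 CPM in cycling and 205 and 183 CPM in treated cells. Both treated libraries were below both cycling ones, with a log2 fold change of -0.42 ± 0.12 (adjusted p = 0.0185), a call that ended without cycling replicate 1 or thapsigargin replicate 2 (adjusted p up to 0.147). Footprints on MARS1, the methionyl enzyme, fell by 0.41 and those on YARS1, the tyrosyl enzyme, by 0.27 on the log2 scale. Each of these 2 calls ended without 1 thapsigargin library, replicate 1 for MARS1 (adjusted p = 0.112) and replicate 2 for YARS1 (adjusted p = 0.103). Fitted on the cycling and thapsigargin libraries alone, footprints on 6 cytosolic genes rose and those on 1 fell.

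At the mRNA level, 0 of 19 cytosolic genes rose under thapsigargin and 3 fell, where 11.7% of all genes tested rose and 12.8% fell. DESeq2 also called 0 higher, and 4 cytosolic genes were at an unadjusted p under 0.05 in either direction by edgeR. The 3 that fell were WARS1, LARS1 and KARS1. WARS1, the tryptophanyl enzyme, was at 359 and 365 CPM in cycling and 222 and 245 CPM in treated cells. The treated libraries were the lowest of all 13 RNA-seq libraries, with a log2 fold change of -0.63 ± 0.12 (adjusted p = 0.00267). LARS1, the leucyl enzyme, changed by -0.46 ± 0.12 on the log2 scale (adjusted p = 0.0127), and its call ended without cycling replicate 1 or thapsigargin replicate 2 (adjusted p up to 0.119). Fitted on the cycling and thapsigargin libraries alone, 0 cytosolic mRNAs passed, and WARS1 was at an adjusted p of 0.0518.

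Translational efficiency, the ratio of footprints to mRNA tested as an interaction of assay and state over all 27 libraries, rose for 5 of the 19 cytosolic genes and fell for 0. Across all genes tested, 9.46% rose and 11.3% fell. Each assay is scaled within its libraries, so efficiency too is relative to that of the other genes. The median cytosolic change was 0.35 beside -0.09 for all genes. SARS1 had the largest rise, at 1.75 ± 0.13 on the log2 scale (adjusted p = 7.20e-09). AARS1 followed at 0.96 ± 0.28 (adjusted p = 0.0157), WARS1 at 0.87 ± 0.17 (adjusted p = 0.00112), GARS1 at 0.67 ± 0.13 (adjusted p = 9.06e-04) and EPRS1 at 0.53 ± 0.15 (adjusted p = 0.0115). For WARS1 the change combined the lower mRNA above with footprints of 1013 and 828 CPM under thapsigargin against 842, 829 and 729 CPM in cycling cells, which overlap. The AARS1 call ended without thapsigargin RNA-seq replicate 1 (adjusted p = 0.106), the library with the low AARS1 mRNA. That of EPRS1 ended without RNA-seq replicate 2 (adjusted p = 0.0549), with the replicate number as a block (adjusted p = 0.0576), and when the cycling and thapsigargin libraries were fitted alone (adjusted p = 0.152), a fit that also ended that of AARS1 (adjusted p = 0.0998) and left 3 cytosolic genes called. Outside thapsigargin, 0 of 34 synthetase genes were called in efficiency in quiescent, irradiated or etoposide-treated against cycling cells. Of all genes, 0%, 0.0256% (0.0171% higher, 0.00854% lower) and 0.0683% (0.0256% higher, 0.0427% lower) were called. DESeq2 also called 0 synthetase genes in each, and 0, 0 and 1 were at an unadjusted p under 0.05 by edgeR. In simulated thapsigargin data the efficiency fit recovered 14.9% of 2-fold changes. The absence of calls therefore does not show that efficiency was unchanged.

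**Figure D2:**
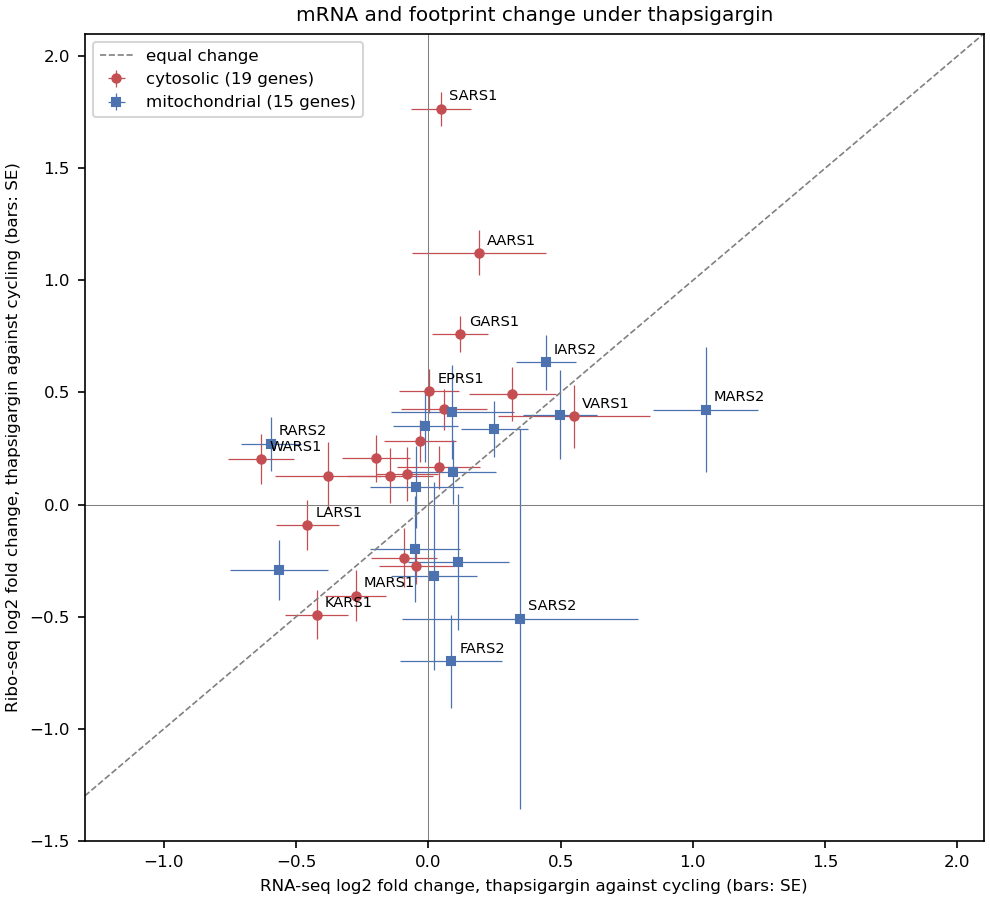
Each point is 1 synthetase gene, with its RNA-seq log2 fold change under thapsigargin on the horizontal axis and its Ribo-seq log2 fold change on the vertical axis (bars, SE; dashed line, equal change in both). SARS1, AARS1 and GARS1 lie well above the dashed line with mRNA changes of 0.05 to 0.19, and RARS2 and WARS1 lie above it with mRNA changes of about -0.60 and -0.63.

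Among the mitochondrial genes, at the mRNA level 3 of 15 rose and 2 fell. MARS2, the mitochondrial methionyl enzyme, rose most: its mRNA was at 7.04 and 6.59 CPM in cycling and 14.8 and 13.4 CPM in treated cells. The groups were far apart, with a log2 fold change of 1.05 ± 0.20 (adjusted p = 0.00203), while its footprints, at 10.9, 9.30 and 9.07 against 13.6 and 12.5 CPM, gave 0.42 ± 0.28 (adjusted p = 0.233). RARS2, the mitochondrial arginyl enzyme, had mRNA at 99.5 and 100.4 CPM in cycling and 68.8 and 63.4 CPM in treated cells. Its mRNA fell by 0.60 on the log2 scale (adjusted p = 0.00220), its footprints changed by 0.27 ± 0.12 without passing the test (adjusted p = 0.0794), and its translational efficiency rose by 0.90 ± 0.16 (adjusted p = 4.87e-04). The mRNA call ended when the cycling and thapsigargin libraries were fitted alone (adjusted p = 0.0606). RARS2 was the 1 mitochondrial gene of 15 whose efficiency was called.

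IARS2, the mitochondrial isoleucyl enzyme, rose in both assays, with footprints at 81.5, 89.8 and 83.5 CPM in cycling and 139 and 125 CPM in treated cells, with no overlap and a log2 fold change of 0.63 ± 0.12 (adjusted p = 0.00113). Its mRNA rose by 0.44 ± 0.11 (adjusted p = 0.0126). LARS2 mRNA, for the mitochondrial leucyl enzyme, rose by 0.50 ± 0.14 and TARS2 mRNA, for the threonyl one, fell by 0.56. Footprints on FARS2, the mitochondrial phenylalanyl enzyme, were at 22.1, 25.6 and 21.1 CPM in cycling and 15.8 and 12.5 CPM in treated cells, a log2 fold change of -0.70 ± 0.21 (adjusted p = 0.0150), and those on CARS2 rose by 0.34 ± 0.13. Leaving out 1 library ended the mRNA calls of IARS2 (adjusted p up to 0.107), LARS2 (up to 0.116) and TARS2 (up to 0.194) and the footprint calls of FARS2 (up to 0.0914) and CARS2 (up to 0.228). For IARS2 and LARS2 mRNA these were 3 of the 4 libraries, for TARS2 mRNA all 4. For FARS2 they were cycling replicate 2 and thapsigargin replicate 2, and for CARS2 4 of the 5 libraries.

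Genes around the synthetases were followed in lists, beside all genes tested under thapsigargin, of which 11.7% rose and 12.8% fell in RNA-seq and 20% rose and 24.4% fell in Ribo-seq. Of 21 genes of ATF4 and amino acid supply, 11 rose and 0 fell in RNA-seq under thapsigargin (median log2 fold change 0.79), and 12 rose and 1 fell in Ribo-seq (median 0.87). ATF4 itself, singled out after its values were seen, rose by 0.76 ± 0.12 in mRNA and by 1.53 ± 0.13 in footprints. By contrast the 13 known ATF4 targets among the synthetases had a median of 0.00 in RNA-seq, with 0 higher and 2 lower, and of 0.28 in Ribo-seq, with 7 higher and 2 lower. Of the 3 scaffold proteins of the multisynthetase complex, which holds several cytosolic synthetases together, AIMP1 footprints rose by 0.49 ± 0.16, and those of AIMP2 and EEF1E1 fell by 0.84 and 0.99. Of 13 genes of mitochondrial translation, 1 rose and 3 fell in RNA-seq and 4 rose and 1 fell in Ribo-seq. Of 14 genes of tRNA maturation and export, 1 rose in RNA-seq, and 2 rose and 3 fell in Ribo-seq.

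Irradiated against cycling cells compares one senescent state with proliferating cells. LMNB1, a lamin lost in senescence, fell by 3.54 on the log2 scale in RNA-seq. Most synthetase mRNAs passed no test here: 1 of 19 cytosolic genes rose and 0 fell, and 2 of 15 mitochondrial genes rose and 1 fell, where 16.2% of all genes rose and 18.8% fell. DESeq2 also called 0 cytosolic genes lower, and 3 cytosolic genes were at an unadjusted p under 0.05 by edgeR. In Ribo-seq 6 cytosolic genes rose and 4 fell, and 2 mitochondrial genes rose and 1 fell, against 17.2% and 22.6% of all genes. The median cytosolic changes were 0.04 in RNA-seq and 0.08 in Ribo-seq, beside 0.03 and -0.01 for all genes.

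WARS1 rose in both assays. Its mRNA was at 631, 673 and 603 CPM in irradiated against 359 and 365 CPM in cycling cells, a log2 fold change of 0.81 ± 0.12 (adjusted p = 1.30e-04). Its footprints were at 1414, 1341 and 1340.3 CPM against 842, 829 and 729 CPM, a log2 fold change of 0.77 ± 0.10 (adjusted p = 5.29e-05). In both assays the 3 irradiated libraries were the highest of all libraries. WARS1 is also induced by interferon. Of 10 interferon-response genes, 5 rose and 0 fell in RNA-seq after irradiation (median 0.73), where 16.2% of all genes rose, and in Ribo-seq 4 of the 9 tested rose and 0 fell (median 0.56), where 17.2% rose. The part of interferon in WARS1 was not tested.

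Among the other cytosolic genes, AARS1 footprints were at 702, 721 and 716 CPM after irradiation, above the 459 to 487 CPM of cycling cells, with a log2 fold change of 0.58 ± 0.09 (adjusted p = 2.34e-04). SARS1 footprints rose by 0.27 ± 0.07 (adjusted p = 0.00697). EPRS1 (0.28), NARS1 (0.24) and GARS1 (0.20) rose by less. Each of these calls ended without irradiated replicate 1 or 2, that of NARS1 also without cycling replicate 3, and that of GARS1 with any 1 of 5 of the 6 libraries left out (adjusted p up to 0.0940, 0.122 and 0.112), so that 3 cytosolic genes rose without irradiated replicate 1 or 2. With no filter on low counts 3 rose and 7 fell. All 6 that rose are known ATF4 targets, as are 13 of the 19 cytosolic genes. MARS1, also a known target, fell.

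QARS1, the glutaminyl enzyme, fell most, with footprints at 99.7, 92.6 and 102 CPM in irradiated and 160.0, 155 and 166 CPM in cycling cells, which do not overlap, with a log2 fold change of -0.71 ± 0.14 (adjusted p = 0.00107). KARS1 footprints were at 216, 216 and 209 CPM, below every cycling library, with a change of -0.34 ± 0.09 (adjusted p = 0.0112). That call ended without cycling replicate 2 or irradiated replicate 3 (adjusted p up to 0.0575). Without cycling replicate 2, or without irradiated replicate 3, 1 cytosolic gene fell. MARS1 and FARSB footprints each fell by 0.32, calls that ended without any 1 of 5 of the 6 libraries (adjusted p up to 0.107 and 0.178).

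Of the mitochondrial genes, RARS2 rose in both senescent states and both assays. Its mRNA was at 99.5 and 100.4 CPM in cycling, 169.9, 165 and 171 CPM in irradiated and 153, 151 and 149 CPM in etoposide-treated cells. Every senescent library was above every cycling and quiescent one, with log2 fold changes of 0.75 ± 0.11 after irradiation (adjusted p = 1.10e-04) and 0.59 ± 0.11 after etoposide (adjusted p = 7.04e-04). RARS2 footprints were at 65.7, 74.5 and 70.9 CPM in cycling, 119, 129.6 and 108 CPM in irradiated and 110.0, 123 and 118 CPM in etoposide-treated cells. Again no senescent library overlapped a cycling one, with changes of 0.75 ± 0.10 (adjusted p = 7.06e-05) and 0.73 ± 0.10 (adjusted p = 8.14e-05). Both contrasts share the cycling libraries. The RARS2 calls passed under every alternative setting and with any 1 library left out.

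IARS2 footprints also rose in both senescent states, by 0.48 ± 0.11 after irradiation (adjusted p = 0.00310) and 0.48 ± 0.11 after etoposide (adjusted p = 0.00316). They were at 122, 125 and 108 CPM in irradiated and 106, 124 and 127 CPM in etoposide-treated cells, all above the 81.5 to 89.8 CPM of cycling cells. Its mRNA rose by 0.31 ± 0.10 after irradiation, a call that ended without any 1 of the 5 libraries (adjusted p up to 0.197). LARS2 went the other way after irradiation: its mRNA was at 24.4, 24.0 and 20.6 CPM against 35.2 and 34.4 CPM in cycling cells. The groups are apart, with a log2 fold change of -0.60 ± 0.13 (adjusted p = 0.00251). LARS2 footprints, at 29.0, 31.7 and 22.8 CPM against 38.0, 39.8 and 39.3 CPM, gave -0.49 ± 0.18 (adjusted p = 0.0387), a call that ended without any 1 of 5 of the 6 libraries (adjusted p up to 0.190).

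**Figure D3:**
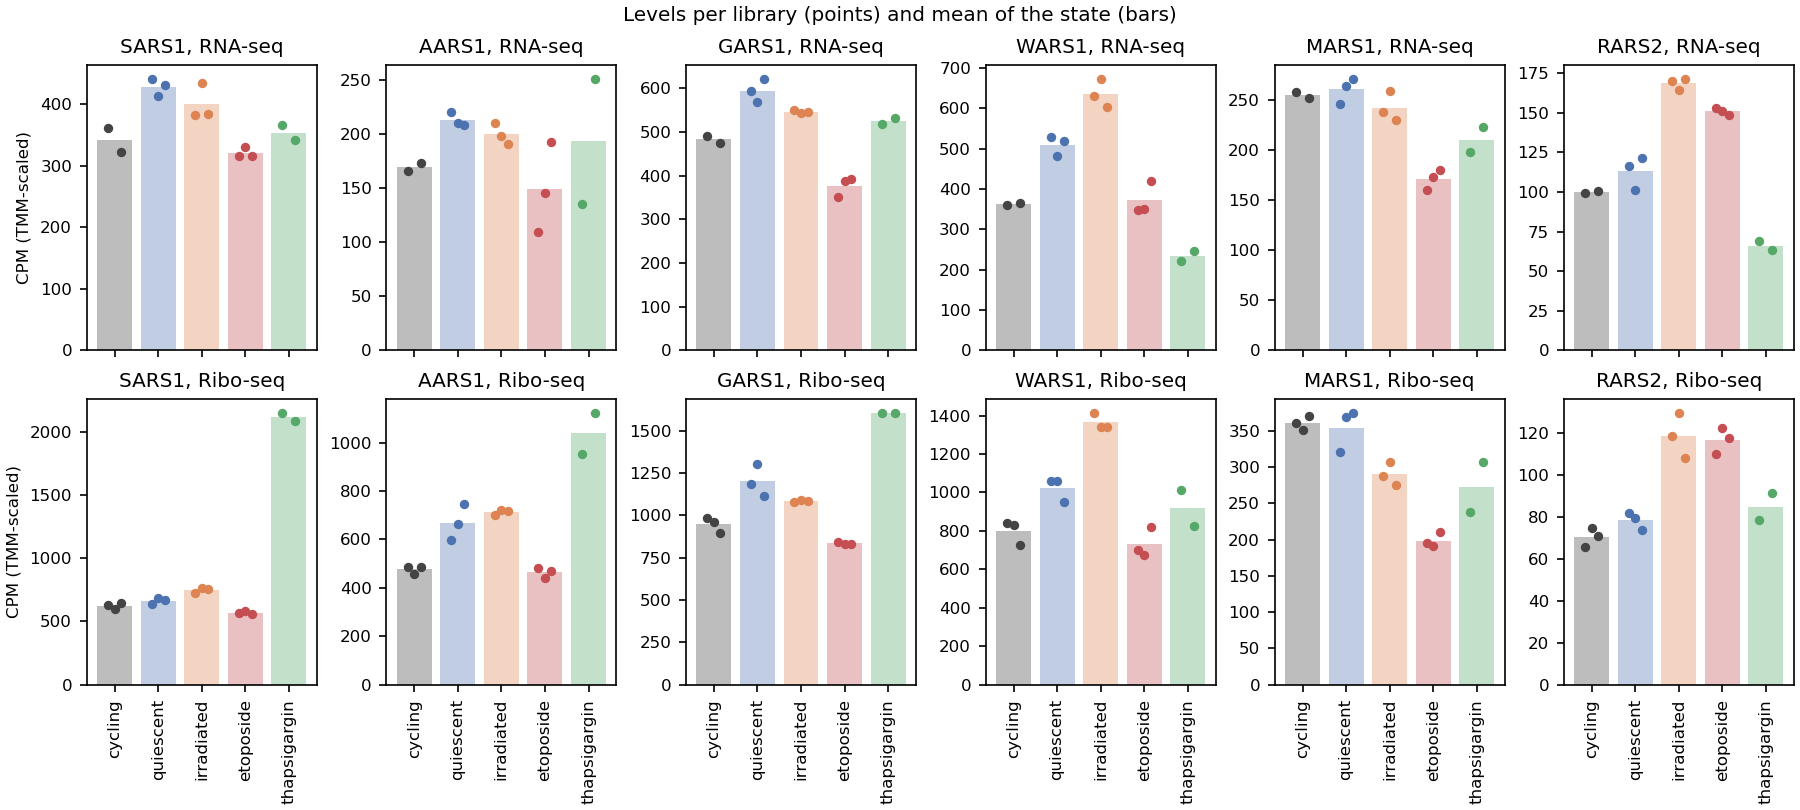
CPM after TMM scaling of 6 synthetase genes in RNA-seq (upper row) and Ribo-seq (lower row), with points for libraries and bars for the mean of each state; axes start at 0 and differ between panels. SARS1 footprints stand apart in the thapsigargin libraries at 2086 and 2149 CPM, WARS1 is highest in irradiated cells in both assays, MARS1 is lowest in etoposide-treated cells, and RARS2 is high in both senescent states.

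Etoposide-treated against cycling cells is the matching comparison for the other senescent state. In RNA-seq 0 of 19 cytosolic genes rose and 4 fell, and 1 of 15 mitochondrial genes rose and 1 fell, where 16.8% of all genes rose and 17.8% fell. DESeq2 also called 0 cytosolic genes higher, and 7 cytosolic genes were at an unadjusted p under 0.05 in either direction by edgeR. In Ribo-seq 1 cytosolic gene rose and 4 fell, and 2 mitochondrial genes rose and 1 fell, against 16.4% and 17.6% of all genes. The cytosolic medians were -0.18 and -0.13, beside 0.00 and -0.01 for all genes.

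MARS1 fell most in both assays. Its mRNA was at 159.9, 173 and 180.4 CPM after etoposide and 258 and 252 CPM in cycling cells, a log2 fold change of -0.57 ± 0.10 (adjusted p = 8.58e-04). Its footprints were at 195, 191 and 209.8 CPM against 360.2, 352 and 371 CPM, a log2 fold change of -0.86 ± 0.10 (adjusted p = 1.81e-05). The etoposide libraries were the lowest of any state in both assays. GARS1 mRNA was at 351, 388 and 392 CPM against 489.6 and 476 CPM, with a change of -0.36 ± 0.10 (adjusted p = 0.0114) that ended without either cycling library (adjusted p up to 0.0883), and its footprints changed by -0.18 ± 0.07 (adjusted p = 0.0682). EPRS1 was the cytosolic gene whose footprints rose, at 658, 648 and 641 CPM against 545, 528 and 455 CPM (0.35 ± 0.09, adjusted p = 0.00702).

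WARS1 passed no test here. Its mRNA was at 348, 350.4 and 420.2 CPM after etoposide, which overlaps cycling cells (0.04 ± 0.11, adjusted p = 0.807), and its footprints changed by -0.13 ± 0.10 (adjusted p = 0.351). KARS1 changed by -0.18 ± 0.11 in mRNA (adjusted p = 0.203) and -0.18 ± 0.09 in footprints (adjusted p = 0.149). YARS1 fell in both assays, by 0.41 in mRNA and 0.26 in footprints. QARS1 and TARS1, the threonyl enzyme, fell in footprints by 0.42 and 0.29, FARSB and WARS2 in mRNA by 0.34 and 0.41, and TARS2 in footprints by 0.32. Each of these calls ended with 1 library left out, with adjusted p up to 0.137 and 0.0789 for YARS1, 0.109 for QARS1, 0.0944 for TARS1, 0.318 for FARSB, 0.173 for WARS2 and 0.143 for TARS2. The libraries were etoposide replicates 1 and 2 for YARS1 footprints, and 3 or more libraries for each of the others.

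The 2 senescent states were compared directly, irradiated against etoposide-treated, with 3 libraries each and no shared control. Of the 13 known targets, 7 were higher in irradiated cells in RNA-seq and 7 in Ribo-seq, with 0 lower in either, where 9.68% of all genes were higher and 12.9% lower in RNA-seq, and 7.77% higher and 13.9% lower in Ribo-seq. Of the 6 other cytosolic genes 0 differed in either assay (0 and 1 at an unadjusted p under 0.05 by edgeR, 0 by DESeq2), though 2 were lower in Ribo-seq when only these states were fitted. Of the 15 mitochondrial genes, 1 was higher and 2 were lower in RNA-seq, and 1 was higher in Ribo-seq. The medians were 0.34 and 0.35 for the known targets, -0.08 and -0.19 for the other cytosolic genes, -0.05 and 0.02 for the mitochondrial ones, and 0.06 and 0.04 for all genes, RNA-seq first.

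Markers of cell types also differed between the 2 senescent states. Of 3 smooth muscle markers, MYH11 and DES were higher in irradiated cells, with mRNA differences of 2.05 ± 0.33 and 2.95 ± 0.29 (adjusted p = 9.04e-04 and 5.77e-05) and footprint differences of 1.94 ± 0.44 and 2.08 ± 0.60 (adjusted p = 0.00657 and 0.0249). The 3 summed to 155 to 190.0 CPM in irradiated and 92.1 to 137 CPM in etoposide-treated cells in RNA-seq, and to 185 to 204 against 78.5 to 135 CPM in Ribo-seq, with none at 0. Of 10 fibroblast markers, 1 was higher and 1 lower in RNA-seq (sums of 12819.6 to 13143 against 12751 to 14364 CPM), and 1 was higher and 5 lower in Ribo-seq (26273 to 29599 against 38165 to 40309 CPM). The 5 lower ones, COL1A2, COL3A1, FN1, LUM and DCN, differed by -0.84 to -1.09 on the log2 scale. Of 5 epithelial markers, KRT19 was higher in both assays (1.40 and 1.25) and KRT7 lower in RNA-seq (-1.24), with sums of 7.39 to 10.2 against 6.85 to 7.94 CPM in RNA-seq and 14.3 to 17.9 against 10.2 to 14.4 CPM in Ribo-seq, where CDH1 and SFTPC were at 0 in all libraries of both states and EPCAM in all irradiated ones. The 4 endothelial markers summed to at most 2.62 CPM and the 4 immune markers to at most 1.21 CPM, with KDR and PTPRC lower in RNA-seq. The part of these shifts in the differences of the synthetase genes was not tested.

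WARS1 differed most, with mRNA at 631, 673 and 603 CPM in irradiated against 348, 350.4 and 420.2 CPM in etoposide-treated cells. The groups do not overlap, with log2 differences of 0.77 ± 0.10 in RNA-seq (adjusted p = 2.75e-04) and 0.90 ± 0.10 in Ribo-seq (adjusted p = 1.69e-04). MARS1 differed by 0.50 ± 0.09 in mRNA (adjusted p = 0.00213) and 0.54 ± 0.10 in footprints (adjusted p = 0.00215). GARS1 mRNA was at 551, 543 and 545 CPM in irradiated cells, above the 351 to 392 CPM after etoposide (0.54 ± 0.09, adjusted p = 8.25e-04), and its footprints, at 1077, 1091 and 1085 against 841, 831 and 829 CPM, differed by 0.38 ± 0.07 (adjusted p = 0.00275).

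AARS1 footprints were at 702, 721 and 716 CPM in irradiated and 481, 442 and 469 CPM in etoposide-treated cells (0.62 ± 0.09, adjusted p = 7.44e-04). AARS1 mRNA spread from 110.0 to 192 CPM after etoposide and reached the irradiated range, and its difference of 0.42 ± 0.21 did not pass (adjusted p = 0.169). SARS1 (0.40 ± 0.07) and YARS1 (0.35 ± 0.07) were higher in footprints under every alternative. CARS1, the cysteinyl enzyme, differed by 0.36 ± 0.09 in footprints, and its call ended without irradiated replicate 2 or etoposide replicate 1 (adjusted p up to 0.0588).

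In RNA-seq the calls of WARS1, GARS1 and MARS1 passed in all alternatives. Those of SARS1 (0.32), CARS1 (0.34), YARS1 (0.36) and LARS1 (0.36) ended with 1 library left out, 4 or 5 of the 6 in each case (adjusted p up to 0.124, 0.171, 0.150 and 0.0697). The count of known targets higher in RNA-seq was 3 without irradiated replicate 2 or etoposide replicate 2, and 4 with no filter on low counts. In Ribo-seq it was 6 or 7 with any 1 library left out. KARS1 differed by -0.01 ± 0.10 in mRNA (adjusted p = 0.951) and -0.15 ± 0.09 in footprints (adjusted p = 0.297). Among mitochondrial genes, the mRNA calls of MARS2 (-0.50), LARS2 (-0.39) and WARS2 (0.43) and the footprint call of FARS2 (0.51) all ended with 1 library left out, again 4 or 5 of the 6 (adjusted p up to 0.146, 0.131, 0.150 and 0.204).

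**Figure D4:**
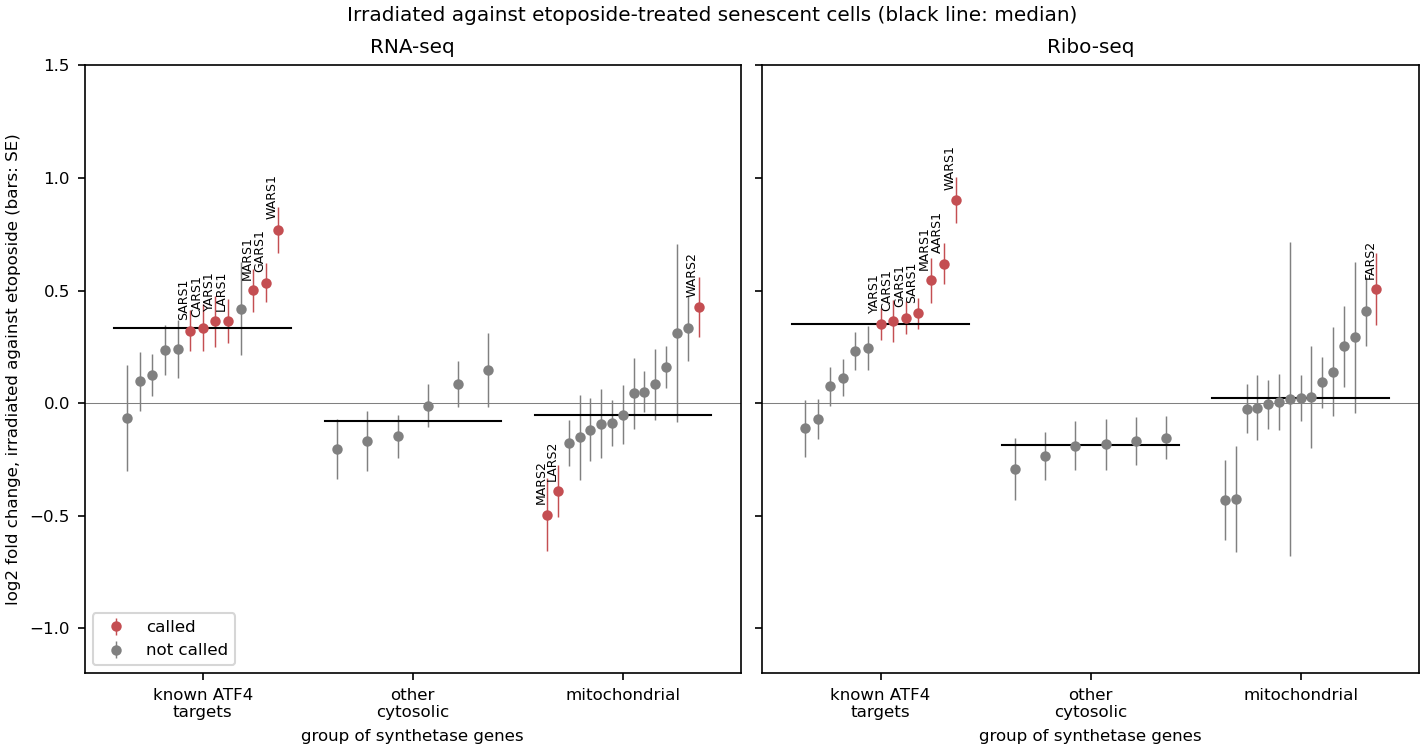
Log2 difference of irradiated against etoposide-treated cells for each synthetase gene (bars, SE), in RNA-seq on the left and Ribo-seq on the right, by group; red marks genes that passed the test and black lines are group medians. The known ATF4 targets have medians of 0.34 and 0.35, with 7 genes called in each assay, and the other cytosolic genes have medians of -0.08 and -0.19 with 0 called.

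The promoter element was also used to divide the cytosolic genes between the 2 senescent states, as a description. The 7 genes with it were above 0 in both assays, with medians of 0.34 and 0.36 and 3 and 4 called. Of the 9 with a window but no element, 5 were above 0 in RNA-seq and 2 in Ribo-seq, with medians of 0.09 and -0.17, and 2 were called in each assay. The genes with the element are all known ATF4 targets, so the 2 groupings overlap. The wider list of ATF4 and amino acid supply had 10 of 21 genes higher and 3 lower in RNA-seq, and 10 higher and 4 lower in Ribo-seq, beside the shares of all genes given above for this comparison. The list summed to 2729 to 2943 CPM in irradiated, 2247 to 2396 CPM in etoposide-treated and 2955 to 2997 CPM in cycling cells in RNA-seq. In Ribo-seq the sums were 2468 to 2665, 2124 to 2374 and 2958 to 3236 CPM. Both senescent states were thus below cycling cells by this sum, in which highly expressed genes weigh most. ATF4 was higher in irradiated than in etoposide-treated cells by 0.39 ± 0.09 in mRNA and 0.83 ± 0.12 in footprints. XPOT, the exporter of tRNAs from the nucleus, was higher by 0.86 ± 0.13 in mRNA and 0.59 ± 0.13 in footprints. It is 1 of the 14 genes of tRNA maturation and export. That list summed to 1053 to 1131 CPM in irradiated and 903 to 941 CPM in etoposide-treated cells in RNA-seq. In Ribo-seq the sums were 1052 to 1076 and 988 to 1043 CPM.

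Quiescent against cycling cells compares arrest without damage. In RNA-seq 2 of 19 cytosolic genes rose and 0 fell, where 5.18% of all genes rose and 10.4% fell. In Ribo-seq 4 rose and 0 fell, against 21.7% of all genes called, 7.09% higher and 14.6% lower. No mitochondrial gene of 15 was called by edgeR in either assay, with 0 and 1 at an unadjusted p under 0.05 and 0 by DESeq2. All of the genes called are known ATF4 targets, as are 13 of the 19 cytosolic genes.

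WARS1 mRNA was at 529.5, 481 and 518 CPM in quiescent against 359 and 365 CPM in cycling cells, apart by a log2 fold change of 0.49 ± 0.11 (adjusted p = 0.0112). Its footprints, at 1061, 1058 and 952 CPM against 842, 829 and 729 CPM, rose by 0.36 ± 0.10 (adjusted p = 0.0214). The first call ended without either cycling library (adjusted p up to 0.107) and the second without cycling replicate 3 or quiescent replicate 1 (adjusted p up to 0.0744), and both when only these states were fitted (adjusted p = 0.0572 and 0.0543). SARS1 mRNA rose by 0.33 ± 0.10 (adjusted p = 0.0496), a call that ended without any 1 of the 5 libraries (adjusted p up to 0.332) and passed under 1 of the 7 other settings.

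In footprints AARS1 was at 598, 663 and 746 CPM, above all cycling libraries (0.49 ± 0.09, adjusted p = 0.00227). EPRS1 rose by 0.37 ± 0.09 (adjusted p = 0.00852) and GARS1, at 1186, 1301 and 1115 CPM against 983, 963 and 895 CPM, by 0.34 ± 0.07 (adjusted p = 0.00479). GARS1 mRNA, at 593, 568 and 621 CPM against 489.6 and 476 CPM, changed by 0.30 ± 0.10 (adjusted p = 0.0531) and passed with DESeq2 (adjusted p = 0.00493). KARS1 was at -0.03 ± 0.11 in mRNA (adjusted p = 0.903) and -0.11 ± 0.09 in footprints (adjusted p = 0.438). The Ribo-seq calls of EPRS1 and GARS1 ended when the quiescent and cycling libraries were fitted alone (adjusted p = 0.0541 and 0.0527).

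The mean of the 2 senescent states was also set against quiescent cells. Damage, contact inhibition and treatment differ together here and cannot be told apart. MKI67, a marker of proliferation, also differed in its fall from cycling cells. Its mRNA changed by -0.94 ± 0.43 in quiescent (adjusted p = 0.170), -3.41 in irradiated and -4.60 in etoposide-treated cells. Its footprints changed by -1.14, -4.21 and -4.28. For the senescent mean against quiescent cells, 0 of 19 cytosolic genes were higher and 6 lower in RNA-seq. Of 15 mitochondrial genes, 2 were higher and 2 lower, where 16.6% of all genes were higher and 17.6% lower. DESeq2 also called 0 cytosolic genes higher, and 8 were at an unadjusted p under 0.05 in either direction by edgeR. In Ribo-seq 0 cytosolic genes were higher and 4 lower (DESeq2 called 1 higher and 5 lower, and 6 were at an unadjusted p under 0.05 by edgeR), and 2 mitochondrial genes were higher, against 26% of all genes called, 12.4% higher and 13.6% lower. The cytosolic medians were -0.19 and -0.06, beside 0.00 and 0.02 for all genes.

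GARS1 was lower in the senescent mean, with a log2 change of -0.39 ± 0.07 in mRNA (adjusted p = 0.00133) and -0.34 ± 0.06 in footprints (adjusted p = 0.00142). MARS1 was lower by a log2 change of -0.36 ± 0.08 in mRNA (adjusted p = 0.00424) and -0.56 ± 0.08 in footprints (adjusted p = 2.74e-04). For both genes the etoposide libraries lay below the irradiated ones in each assay. RARS2 was higher by 0.50 ± 0.08 in mRNA (adjusted p = 4.87e-04) and 0.59 ± 0.09 in footprints (adjusted p = 2.79e-04). These calls passed under all alternatives.

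QARS1 mRNA had the largest cytosolic change, -0.50 ± 0.14 on the log2 scale (adjusted p = 0.0149), with 235, 206 and 152 CPM in quiescent, 153, 152 and 139 CPM in irradiated and 121, 134 and 145 CPM in etoposide-treated cells. The lowest quiescent library lies within the irradiated range, and the call ended without quiescent replicate 1 or 2 (adjusted p up to 0.0957). LARS1 (-0.28), SARS1 (-0.26) and TARS1 (-0.35) were lower in mRNA, as were QARS1 (-0.33) and TARS1 (-0.23) in footprints, all calls that ended with 1 library left out (adjusted p up to 0.0614, 0.0856, 0.143, 0.157 and 0.142). The QARS1 footprint call also ended with the replicate number as a block (adjusted p = 0.0563). For LARS1 it was quiescent replicate 3, for SARS1 quiescent replicate 1 or irradiated replicate 1 or 3, and for the others at least 5 of the 9 libraries. Among mitochondrial genes LARS2 (-0.33) and WARS2 (-0.38) were lower in mRNA, and IARS2 was higher by 0.27 in mRNA and 0.32 in footprints. The 3 mRNA calls ended without quiescent replicate 1, that of LARS2 also without quiescent replicate 2, and the footprint call of IARS2 without any 1 of 5 of the 9 libraries (adjusted p up to 0.0641, 0.0972, 0.0645 and 0.0911). Without quiescent RNA-seq replicate 1, the number of cytosolic genes lower in RNA-seq was 3, and in Ribo-seq it was 2 with any 1 of 5 libraries left out. WARS1, at -0.07 ± 0.09 in mRNA (adjusted p = 0.595) and -0.04 ± 0.09 in footprints (adjusted p = 0.809), and KARS1, at -0.16 ± 0.08 (adjusted p = 0.146) and -0.15 ± 0.08 (adjusted p = 0.205), did not pass. For WARS1 this mean joins states on opposite sides of quiescent cells. Its mean mRNA was 509 CPM in quiescent, 635 CPM in irradiated and 373 CPM in etoposide-treated cells. Its mean footprints were 1024, 1365 and 731 CPM.

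Across the comparisons the cytosolic genes were also split by catalytic fold, class I or class II, leaving out EPRS1, which holds both. Under thapsigargin the 9 class I genes had a Ribo-seq median of 0.13 with 2 higher and 2 lower, and the 9 class II genes one of 0.42 with 5 higher and 1 lower. Between the senescent states the order in RNA-seq, another assay, was the reverse. The medians were 0.34 for class I, 5 of 9 higher, and 0.10 for class II, 2 of 9 higher. In Ribo-seq the calls between these states were more evenly spread. They were CARS1, MARS1, WARS1 and YARS1 of class I and AARS1, GARS1 and SARS1 of class II. A grouping chosen after the values were seen set the 7 synthetases of the multisynthetase complex among these genes (EPRS1, IARS1, KARS1, LARS1, MARS1, QARS1 and RARS1) against the 12 outside it. Under thapsigargin the complex members had a Ribo-seq median of 0.13 with 2 higher and 2 lower, and the genes outside one of 0.30 with 6 higher and 1 lower. No test was made of either split.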

How the data were processed

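Gene counts of 13 RNA-seq and 14 Ribo-seq libraries were used as deposited. The authors made them with STAR 2.7.10b on hg38, per the submitters' processing notes, which also name bcl2fastq and DESeq2 1.36.0. The annotation release is not given in the sources used here. Of the strand columns, RNA-seq used the reverse one and Ribo-seq the forward one, and 5.41 to 10.7% and 3.56 to 4.22% of gene counts lay on the other strand. Lines that name no gene, 32.5 to 72.2% of RNA-seq and 46.1 to 86.3% of Ribo-seq reads, were left out. The IDs shared by all files (60534) held at least 99.6% of gene counts in each library. Comparisons of thapsigargin Ribo-seq, and all comparisons of efficiency, cross files with unequal gene lists (62703 and 60664 IDs). In efficiency outside thapsigargin the lists differ only between the assays, alike in both states compared. In efficiency under thapsigargin they differ between the Ribo-seq files of the 2 states compared.

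Protein-coding genes that passed filterByExpr (13291 in RNA-seq, 11764 in Ribo-seq, 11713 for translational efficiency) were fitted with edgeR 4.0.16 (R 4.3.3, limma 3.58.1), TMM scaling and robust quasi-likelihood tests over all 5 states, with Benjamini-Hochberg adjustment over all genes tested and a threshold of 0.05. Efficiency was the interaction of assay and state over 27 libraries. Promoter windows are RefSeq's, GRCh38.p14. Tables and figures used Python 3.11.15, pandas 2.3.3 and matplotlib 3.10.9. Alternatives were RLE scaling, DESeq2 1.42.0, no filter on low counts, unstranded counts, all biotypes, a block on the replicate number, fits on only the states compared, and each library left out. The labels do not say what a shared replicate number means. Deviations from the group means correlated over 0.1 in each of the 3 same-number pairs for Ribo-seq of cycling with quiescent cells (0.183, 0.288 and 0.321). The same held for Ribo-seq of quiescent with irradiated cells (0.100, 0.142 and 0.187). It also held for RNA-seq with Ribo-seq of etoposide-treated cells (0.143, 0.444 and 0.219). Those libraries may therefore be paired. The main fits held no replicate block, so their p-values ignore any such pairing, and the block was fitted only as an alternative. Other sets of 3 pairs held a pair below 0.1, and sets of 2 were not judged.

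In simulated thapsigargin data with known changes, the RNA-seq fit recovered 14.9% of 1.5-fold, 80.6% of 2-fold and 100% of 4-fold changes over 13001 genes. The Ribo-seq fit recovered 13.4%, 70.1% and 98.5% over 11519 genes, and the efficiency fit 2.99%, 14.9% and 100% over 11483 genes. The simulation gave all genes the same dispersion and no other difference between states. It changed only a small share of genes, all well counted. The real data differ in these respects, so these recoveries may not hold for the calls above. Named genes are, per assay and comparison, the called gene of each class with the largest change in each direction, GARS1, KARS1 and WARS1, and up to 5 more in order of adjusted p. FARSB in irradiated cells and YARS1, IARS1 and VARS1 under thapsigargin fall outside that rule and were named after their values were seen, as were some uncalled values shown beside a call. The genes and lists were chosen with earlier results of these data known.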

Additional observations from a re-analysis of the deposited data

How the results depend on the processing

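Of 99 calls on synthetase genes, 44 passed under all 7 alternatives and with each library left out, 51 ended with some library left out and 38 under another setting. In the count of synthetase genes called, quiescent against cycling RNA-seq gave 2, with 1 under RLE scaling, with no filter on low counts, with unstranded counts, with all biotypes and with a replicate block, 4 with DESeq2, and 0 with only the states compared. Irradiated against etoposide-treated RNA-seq gave 10, and 5 with no filter. Fits on only the states compared gave 10 for irradiated (from 4), 10 for etoposide (from 6) and 1 for thapsigargin (from 8) in RNA-seq, and 1 for quiescent (from 4), 8 for thapsigargin (from 14) and 14 for irradiated against etoposide (from 8) in Ribo-seq. The cause was not tested. With 1 library left out the RNA-seq counts ran from 0 to 2 (quiescent), 3 to 3 (irradiated), 2 to 4 (etoposide), 3 to 7 (thapsigargin), 4 to 10 (senescent mean) and 3 to 5 (irradiated against etoposide). The Ribo-seq counts ran from 7 to 10 (irradiated), 4 to 6 (etoposide), 11 to 15 (thapsigargin) and 3 to 6 (senescent mean). Over all genes, fits on only the states compared called 853 for quiescent (from 2068) and 1507 for thapsigargin (from 3256) in RNA-seq, 6021 for etoposide (from 4000) and 4134 for irradiated against etoposide (from 2551) in Ribo-seq, and, for efficiency, 1058 for thapsigargin (from 2437), 543 for irradiated (from 3) and 29 for etoposide (from 8), while DESeq2 called 6 (from 0), 32 and 40 in efficiency for quiescent, irradiated and etoposide. Uncalled values that changed sign with 1 library left out were those of KARS1 mRNA in quiescent cells (-0.100 to 0.0503) and between the senescent states (-0.0730 to 0.0320), SARS1 (-0.0310 to 0.128) and AARS1 (-0.304 to 0.577) mRNA under thapsigargin, and WARS1 mRNA under etoposide (-0.0513 to 0.0904). With the replicate number as a block, 6 of the 99 calls ended: EPRS1 efficiency under thapsigargin, giving 5 calls in place of 6, QARS1 footprints in the senescent mean, SARS1 mRNA in quiescent cells (adjusted p = 0.0752), IARS2 mRNA after irradiation (0.0592), and MARS2 mRNA (0.0631) and FARS2 footprints (0.0518) between the senescent states. The block ended no other call, and gave 7 called genes in place of 6 for etoposide in RNA-seq. Same-number correlations over all pairs of states were over 0.1 in 10 of 23 pairs in RNA-seq (17 of 44 with different numbers), 8 of 26 in Ribo-seq (6 of 52) and 7 of 13 between the assays of 1 state (2 of 24).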
